A study of Mus musculus with 23 samples.

Results

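The 6 matrix metalloproteinase genes Mmp2, Mmp3, Mmp9, Mmp11, Mmp13 and Mmp14 and the 3 genes of their tissue inhibitors, Timp1, Timp2 and Timp3, were followed through the first wave of mouse spermatogenesis, in vivo and in cultured testis explants. These 9 genes were chosen by name as proteases and inhibitors known for the remodelling of extracellular matrix, and they are 9 of the 27466 genes counted. Earlier results of these data were known when they were chosen, which limits every comparison of their calls with the share over all genes. Testes of CD-1 mice aged 6.5, 10.5, 22.5 or 36.5 days postpartum (dpp) were sampled, all of them fresh apart from 3 libraries of 6.5 dpp tissue that had gone through controlled slow freezing (CSF) and thawing. Explants of 6.5 dpp testes were cultured for 4, 16 or 30 days (D4, D16, D30) in medium with serum replacement and retinol, from fresh tissue, with 1 further D30 library from CSF tissue. Their ages match 10.5 dpp (D4), 22.5 dpp (D16) and 36.5 dpp (D30). RNA came from whole testes or pooled explants, and the necrotic centre of the explants was cut away before extraction, so the explant libraries describe the outer tissue.

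Matrix metalloproteinases (MMPs) are zinc-dependent endopeptidases that cut collagens, laminins and other matrix proteins, and most are secreted as inactive proenzymes. The tissue inhibitors of metalloproteinases (TIMPs) bind the active site of the enzymes, and TIMP2 also takes part in the activation of pro-MMP2 by the membrane-bound MMP14. In the testis these proteins are known from the turnover of the basement membrane of the tubules and of the junctions between Sertoli cells, and in other tissues from wound repair.

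Of the 23 libraries 21 were used, with total counts from 28351546 to 69029328. The library labelled 6.5 dpp fresh replicate 1 was left out, since its counts across genes had a Spearman correlation of 0.985 with D16 replicate 1 and of 0.928 with 6.5 dpp fresh replicate 2. Replicate 3 of that group, whose column is identical to that of replicate 2, was not counted a second time. There remained 4 libraries for 6.5 dpp (1 fresh, 3 CSF), 3 each for 10.5 dpp, 22.5 dpp and D4, 2 each for 36.5 dpp and D16, and 4 for D30 (3 fresh, 1 CSF). Germ cell markers (Ddx4 and Dazl) were present in each of them, at summed levels of 586 to 1608 CPM. Levels are given as CPM, the counts of a gene relative to the total of its library, with the SD between libraries. Fold changes come from edgeR on counts with TMM scaling, which sets the bulk of genes equal between libraries, with their standard errors (SE) and p-values adjusted over all 19255 genes tested. All comparisons share 1 estimate of each gene's spread, and neighbouring comparisons share groups, so they are not independent of each other.

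In testes in vivo, the transcripts of the main proteases were highest at 6.5 or 10.5 dpp and were lower at each later age. Mmp2, the gelatinase that cuts type IV collagen, went from 390.2 ± 108 CPM (SD, n = 4) at 6.5 dpp to 2.06 ± 1.15 (n = 2) at 36.5 dpp. Its libraries stood at 424 (fresh), 472, 435 and 231 CPM (CSF) at 6.5 dpp, at 165, 127 and 175 at 10.5 dpp, at 11.5, 21.4 and 14.3 at 22.5 dpp and at 1.25 and 2.88 at 36.5 dpp. No library of one age overlapped with those of the next, although CSF replicate 3 lay far below the other 6.5 dpp libraries. Mmp2 was lower at each step, by a log2 fold change of -1.37 (SE 0.28, adjusted p = 0.0234) from 6.5 to 10.5 dpp, of -3.03 (SE 0.32, adjusted p = 3.27e-07) from 10.5 to 22.5 dpp and of -2.39 (SE 0.37, adjusted p = 7.48e-05) from 22.5 to 36.5 dpp.

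**Figure D1:**
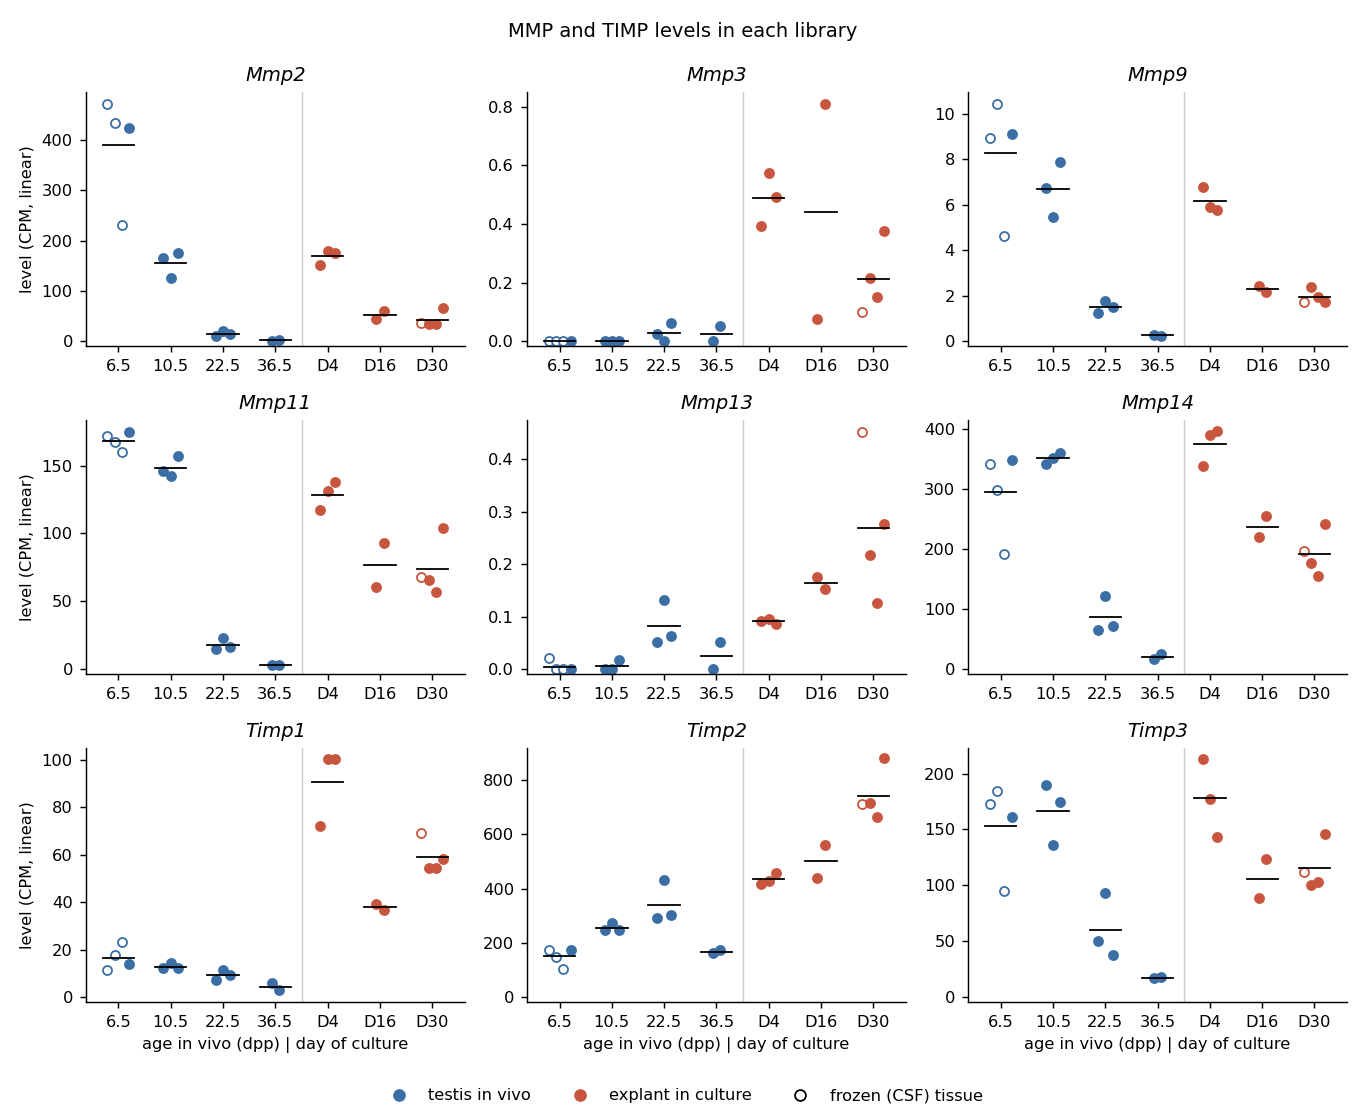
Level of each gene in each library, in CPM on a linear axis of its own, against age in vivo (blue) and day of culture (red). Open circles are libraries of CSF tissue and black lines group means, and Mmp2, Mmp11 and Mmp14 of testis in vivo are near 0 at 36.5 dpp while those of D30 explants are at 43.1, 73.8 and 193 CPM on average.

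Mmp14, which encodes a membrane-anchored collagenase, stayed at its early level until 10.5 dpp. It stood at 349, 343, 299 and 192 CPM at 6.5 dpp and at 342, 352 and 361 at 10.5 dpp, and then at 66.2, 122 and 71.8 at 22.5 dpp and at 17.4 and 24.8 at 36.5 dpp. The first pair of ages overlapped and the later ages did not, with log2 fold changes of -1.75 (SE 0.22, adjusted p = 2.47e-06) from 10.5 to 22.5 dpp and of -1.50 (SE 0.25, adjusted p = 0.000129) from 22.5 to 36.5 dpp. Mmp11, stromelysin 3, stood at 160.0 to 175 CPM at 6.5 dpp and 143 to 157 at 10.5 dpp, without overlap and without passing the test, and then at 14.7 to 22.8 at 22.5 dpp, ending with 3.15 and 3.42 at 36.5 dpp. It fell by 2.78 on the log2 scale (SE 0.20, adjusted p = 3.51e-09) at 22.5 dpp and by a further log2 step of -1.92 (SE 0.23, adjusted p = 5.27e-06) at 36.5 dpp.

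The other 3 proteases were scarce. Mmp9, the second gelatinase, lay between 4.62 and 10.4 CPM at 6.5 and 10.5 dpp, at 1.24 to 1.78 CPM at 22.5 dpp and at 0.297 and 0.232 CPM at 36.5 dpp, and it fell at both later steps (log2 fold changes of -1.86 and -2.0, adjusted p = 8.63e-06 and 0.000175). Mmp3, stromelysin 1, which can activate other MMP proenzymes, had 0 counts in every library at 6.5 and 10.5 dpp and at most 2 counts in any older testis. Mmp13, the main interstitial collagenase of rodents, had 1 count in all at 6.5 dpp, 1 at 10.5 dpp, 10 at 22.5 dpp and 2 at 36.5 dpp. Its call at 22.5 against 10.5 dpp (adjusted p = 0.00628) therefore compares 10 counts with 1, a ratio of 11.8 with a 95% interval of 1.68 to 511 for counting error alone.

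Among the inhibitors, Timp3 fell with the proteases and Timp2 took another course. Timp2 was the only one of the 9 genes to be higher both at 10.5 than at 6.5 dpp and at 22.5 than at 10.5 dpp, with log2 fold changes of 0.72 (SE 0.15, adjusted p = 0.0301) and 0.69 (SE 0.17, adjusted p = 0.00161). Its libraries stood at 172, 173, 149.5 and 104 CPM at 6.5 dpp, 246, 274 and 246 at 10.5 dpp, 291, 430.0 and 301 at 22.5 dpp and 161 and 172 at 36.5 dpp. In CPM the 36.5 dpp libraries overlapped with those of 6.5 dpp, although on the TMM scale the fall of the last step was smaller than the sum of the 2 rises before it. The log2 fold change from 22.5 to 36.5 dpp was -0.51 (SE 0.19, adjusted p = 0.0322), a call that was lost without 22.5 dpp replicate 2 (-0.38, adjusted p = 0.13), 36.5 dpp replicate 1 (-0.45, adjusted p = 0.16) or 36.5 dpp replicate 2 (-0.57, adjusted p = 0.0677). Timp3, an inhibitor that is bound to the matrix, lay at 95.2 to 190.0 CPM at 6.5 and 10.5 dpp, at 37.7 to 93.1 at 22.5 dpp and at 16.6 and 18.3 at 36.5 dpp, and fell at both later steps (log2 fold changes of -1.20 and -1.25, adjusted p = 0.000771 and 0.00278). Timp1, the soluble and inducible inhibitor, was low at every age in vivo, between 3.03 and 23.1 CPM, and passed the test at no step. Still, its libraries lay lower without overlap at 22.5 than at 10.5 dpp and at 36.5 than at 22.5 dpp. At 36.5 against 22.5 dpp edgeR called it lower by library size only (-1.10, adjusted p = 0.00465) and with fresh libraries only (-0.59, adjusted p = 0.0493). Without 36.5 dpp replicate 1 the log2 fold change of this step was -1.10, from a single 36.5 dpp library.

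Counted over the 9 genes, 1 was called higher (Timp2) and 1 lower (Mmp2) at 10.5 against 6.5 dpp, where 0.675% of all genes tested were higher and 0.467% lower. Both of these calls were lost without the 6.5 dpp CSF libraries, with log2 fold changes of -1.47 for Mmp2 (adjusted p = 0.35) and 0.54 for Timp2 (adjusted p = 1). They were also lost without 6.5 dpp CSF replicate 2 (adjusted p = 0.0792 and 0.105) or any 10.5 dpp library (adjusted p from 0.0845 to 0.195 for Mmp2 and from 0.0938 to 0.2 for Timp2). At 22.5 against 10.5 dpp 2 genes were higher (Mmp13 and Timp2) and 5 lower, beside 33.6% and 27.9% of all genes. At 36.5 against 22.5 dpp 6 were lower and 0 higher, beside 27.5% and 23.3%. The 10 markers of stroma and peritubular cells, from Dcn to Cnn1, moved with these steps, with summed levels from 2274 to 3028 CPM at 6.5 dpp, between 2191 and 2332 at 10.5 dpp, between 663 and 1021 at 22.5 dpp and of 175 and 274 at 36.5 dpp, while 4 spermatid markers (Prm1, Prm2, Tnp1 and Acr) went from at most 3.87 CPM up to 10.5 dpp to between 13908 and 17484 CPM at 36.5 dpp. In such bulk samples, fewer cells of a type and less RNA per cell cannot be told apart.

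Scaling each library to those 10 stromal and peritubular markers in place of the bulk of genes shifted the log2 scale by 1.30 at 22.5 against 10.5 dpp and by 1.46 at 36.5 against 22.5 dpp, so that 66.9% and 66.7% of all genes were called higher and 3.78% and 0.597% lower. On that scale Mmp2 was still lower at both steps, while Mmp9 was no longer called at either (log2 fold changes of -0.57 and -0.55), nor was Mmp14 at 22.5 dpp (-0.48, adjusted p = 0.0633). Mmp11 remained lower at 22.5 dpp and lost its call at 36.5 dpp (-0.44, adjusted p = 0.0734). Timp1 turned from values of -0.17 and -0.58 to increases of 1.13 (adjusted p = 0.00052) and 0.85 (adjusted p = 0.0111), Timp2 at 36.5 dpp from -0.51 to 0.97 (adjusted p = 0.00194), Timp3 to 0.03 and 0.27, and Mmp14 at 36.5 dpp to 0.01.

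The first question on culture was what differed after 4 days. The inhibitors Timp1 and Timp2 and the scarce proteases Mmp3 and Mmp13 were higher at D4 than at 10.5 dpp, while the abundant proteases stayed close to the level of the age-matched testis. Timp1 stood out, at 72.0, 100.2 and 100.2 CPM in the D4 explants against 12.1, 14.3 and 12.1 CPM at 10.5 dpp. All D4 libraries lay far above all testis libraries, and the log2 fold change was 2.91 (SE 0.28, adjusted p = 2.18e-06). Timp2 stood at 415, 427 and 458 CPM against 246, 274 and 246, again with no overlap, a log2 fold change of 0.85 (SE 0.17, adjusted p = 0.00318).

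Mmp3 had 17, 24 and 34 counts in the D4 libraries (0.395 to 0.576 CPM) and none at 10.5 dpp. Set against the 3 counts that a count of 0 over the whole 10.5 dpp group allows, its level was at least 22.0-fold higher (adjusted p = 0.00506). Mmp13 had 4, 4 and 6 counts against 0, 0 and 1, a ratio of 12.3 with a 95% interval of 1.88 to 521 for counting error alone. Its call (adjusted p = 0.0381) did not survive leaving out any of the 6 libraries in turn (adjusted p from 0.0589 without 10.5 dpp replicate 3 to 0.149 without 10.5 dpp replicate 1). Both genes stayed at a trace level beside Mmp14 or Timp2.

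Mmp2 stood at 151, 180.0 and 177 CPM at D4 against 165, 127 and 175 at 10.5 dpp, Mmp14 at 339.8, 391 and 397 against 342, 352 and 361, and Mmp11 at 117, 131 and 138 against 146, 143 and 157. The ranges of Mmp2 and Mmp14 overlapped, those of Mmp11 did not, and none of these genes passed the test, nor did Mmp9 or Timp3. Their log2 fold changes lay between -0.12 (SE 0.19, Mmp11) and 0.21 (SE 0.29, Mmp2). In all, 4 of the 9 genes were higher and 0 lower at D4, beside 4.92% and 3.18% of all genes tested, and their median log2 fold change was 0.21 beside -0.01 over all genes. The summed stromal and peritubular markers were alike, at 1907 to 2391 CPM at D4 and 2191 to 2332 at 10.5 dpp, and scaling to them left the 4 calls in place, with Timp1 at 2.86. With 6.5 dpp fresh replicate 1 kept in the fit, the calls for Timp1 and Mmp3 were left, and those for Timp2 (0.85, adjusted p = 0.369) and Mmp13 (adjusted p = 0.324) were lost.

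The sequence just before the transcription start is shown for the 4 genes called at D4, as the 250 bases upstream in the RefSeq annotation of GRCm38.p6, 5′ to 3′ on the strand of the gene. The windows lie at chr9:7445572-7445821 for Mmp3 and chr9:7272264-7272513 for Mmp13, which are neighbours on the plus strand, at chrX:20869916-20870165 on the plus strand for Timp1 and at chr11:118355412-118355661 on the minus strand for Timp2. Capitals mark exact matches to 4 motifs, namely the AP-1 motif TGAGTCA, the Ets motif AGGAAG and the GC box GGGCGG, each searched on both strands, and the TATA box TATAAA on the gene's strand.
Mmp3: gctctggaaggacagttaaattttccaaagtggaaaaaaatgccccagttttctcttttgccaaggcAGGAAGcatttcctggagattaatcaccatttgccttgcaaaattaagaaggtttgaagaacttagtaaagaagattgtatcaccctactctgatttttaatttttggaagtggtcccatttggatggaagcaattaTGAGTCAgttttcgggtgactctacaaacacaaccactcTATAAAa
Mmp13: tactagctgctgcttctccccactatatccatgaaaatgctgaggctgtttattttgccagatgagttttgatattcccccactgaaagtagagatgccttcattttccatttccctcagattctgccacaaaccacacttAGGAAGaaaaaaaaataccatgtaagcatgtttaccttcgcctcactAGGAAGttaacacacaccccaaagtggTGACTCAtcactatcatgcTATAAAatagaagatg
Timp1: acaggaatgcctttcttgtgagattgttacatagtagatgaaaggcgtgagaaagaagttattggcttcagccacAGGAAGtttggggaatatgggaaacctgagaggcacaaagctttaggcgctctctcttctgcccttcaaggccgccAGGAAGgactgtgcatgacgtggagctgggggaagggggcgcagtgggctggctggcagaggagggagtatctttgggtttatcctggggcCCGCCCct
Timp2: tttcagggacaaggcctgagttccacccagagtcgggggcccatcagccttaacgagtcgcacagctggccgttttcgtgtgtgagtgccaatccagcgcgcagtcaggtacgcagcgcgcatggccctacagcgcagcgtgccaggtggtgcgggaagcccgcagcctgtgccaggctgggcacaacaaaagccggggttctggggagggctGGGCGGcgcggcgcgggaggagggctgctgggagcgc
The Mmp3 and Mmp13 windows share an AP-1 motif, which begins 46 and 35 bases before the start, and a TATA box, at 7 and 16 bases. The Timp1 and Timp2 windows hold neither and have a GC box instead, at 8 and 37 bases, and Timp1 has 2 Ets motifs. Of all 32851 windows of the same length, 4.46% hold the AP-1 motif, 7.59% the TATA box, 29.5% the Ets motif and 32.7% the GC box. Windows were also found for Mmp11, Mmp14 and Timp3, all with a GC box and without the AP-1 motif, and not for Mmp2 and Mmp9. A match of letters is a description and does not show a bound site.

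By D16 the abundant proteases were also higher in culture than in the age-matched testis. Mmp11 stood at 60.5 and 92.8 CPM against 14.7, 22.8 and 16.1 CPM at 22.5 dpp (log2 fold change 1.96, SE 0.21, adjusted p = 6.51e-06). Mmp2 stood at 44.2 and 60.7 against 11.5, 21.4 and 14.3 (1.60, SE 0.32, adjusted p = 0.00246), and Mmp14 at 220.0 and 256 against 66.2, 122 and 71.8 (1.32, SE 0.23, adjusted p = 0.000776). For each of them every explant library lay above every testis library. Timp1, at 39.2 and 36.7 CPM against 7.37, 11.6 and 9.29, was again higher (1.87, SE 0.29, adjusted p = 0.000274).

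The other inhibitors were closer to the testis at D16. Timp2 stood at 438 and 562 CPM against 291, 430.0 and 301 (log2 fold change 0.41, SE 0.18, adjusted p = 0.109) and Timp3 at 88.4 and 124 against 49.7, 93.1 and 37.7 (0.69, SE 0.29, adjusted p = 0.0861). Neither passed the test, though both did without 22.5 dpp replicate 2, the highest testis library (0.53, adjusted p = 0.0479, and 1.05, adjusted p = 0.01). Mmp3 had 3 counts in D16 replicate 1 and 37 in replicate 2, against 3 in all at 22.5 dpp, so that its call (adjusted p = 0.0245) rested on replicate 2 and was lost without it (adjusted p = 0.603), as it was without 22.5 dpp replicate 1 (0.0795) or 2 (0.0593). Altogether 5 of the 9 genes were higher and 0 lower, beside 14.0% and 11.8% of all genes, with a median log2 fold change of 1.32 beside -0.08.

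At D30 8 of the 9 genes were higher than at 36.5 dpp and 0 lower, beside 32.4% and 35.0% of all genes, with a median log2 fold change of 2.54 beside -0.03. Mmp11 had the largest fitted fold change, at 65.8, 57.3, 104 and 67.9 CPM (the last from CSF tissue) against 3.15 and 3.42 (3.84, SE 0.25, adjusted p = 8.99e-09). Mmp2 stood at 34.3, 35.1, 65.8 and 37.3 CPM against 1.25 and 2.88 (3.72, SE 0.39, adjusted p = 6.05e-07), and Mmp14 at 177, 156, 242 and 197 against 17.4 and 24.8 (2.54, SE 0.26, adjusted p = 4.23e-07). The mean CPM of Mmp2, Mmp11 and Mmp14 at D30 lay between those of 10.5 and 22.5 dpp testes. The D30 and 36.5 dpp groups did not overlap for any of the 9 genes, Mmp3 included, which was not called. How many of all genes were apart in this way was not counted, so this is a description only.

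Among the inhibitors, Timp1 stood at 54.3, 54.6, 58.3 and 69.3 CPM at D30 against 5.76 and 3.03 (log2 fold change 3.11, SE 0.33, adjusted p = 6.63e-07). Timp2 reached 714, 663, 879.8 and 713 CPM, more than in any testis library at any age, against 161 and 172 (1.51, SE 0.19, adjusted p = 3.68e-06). Timp3 lay at 100.3 to 146 CPM against 16.6 and 18.3 (2.08, SE 0.31, adjusted p = 1.97e-05), and Mmp9 at 1.73 to 2.39 CPM against 0.297 and 0.232 (2.25, SE 0.33, adjusted p = 1.95e-05). Mmp13 had 43 counts in all against 2 (a ratio of 9.73 with a 95% interval of 2.53 to 82.9), with a call (adjusted p = 0.0142) that was lost without 36.5 dpp replicate 1 (adjusted p = 0.15), and Mmp3 had 34 against 2 (7.69, interval 1.97 to 66.1, adjusted p = 0.14).

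The makeup of the samples moved with these differences. At D30 the 10 stromal and peritubular markers summed to 1183 to 1879 CPM, against 175 to 274 at 36.5 dpp (9 of the 10 called higher, 0 lower), and the 4 spermatid markers to 291 to 1390 against 13908 to 17484. At D16 the stromal sum was 1454 and 1563 CPM against 663 to 1021. When each library was scaled to these stromal markers, the log2 scale was shifted by -0.67 at D16 and by -2.01 at D30, and the genes split. Mmp11 (1.31 at D16 and 1.80 at D30), Mmp2 (0.96 and 1.64) and Timp1 (1.20 and 1.15) were still higher in culture on both days. Mmp14 was higher at D16 (0.68) and not called at D30 (0.50, adjusted p = 0.0663), Mmp9 (0.30), Mmp13 (0.59) and Timp3 (0.06) were not called at D30, and Timp2 at D30 turned from 1.51 to -0.50 (adjusted p = 0.0533). So 5 genes were called at D16 on this scale and 3 at D30, beside 4.05% and 2.60% of all genes called higher and 35.4% and 77% called lower. At D16 the values of Timp2 (-0.25) and Mmp9 (-0.20), not called on either scale, were below 0.

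**Figure D2:**
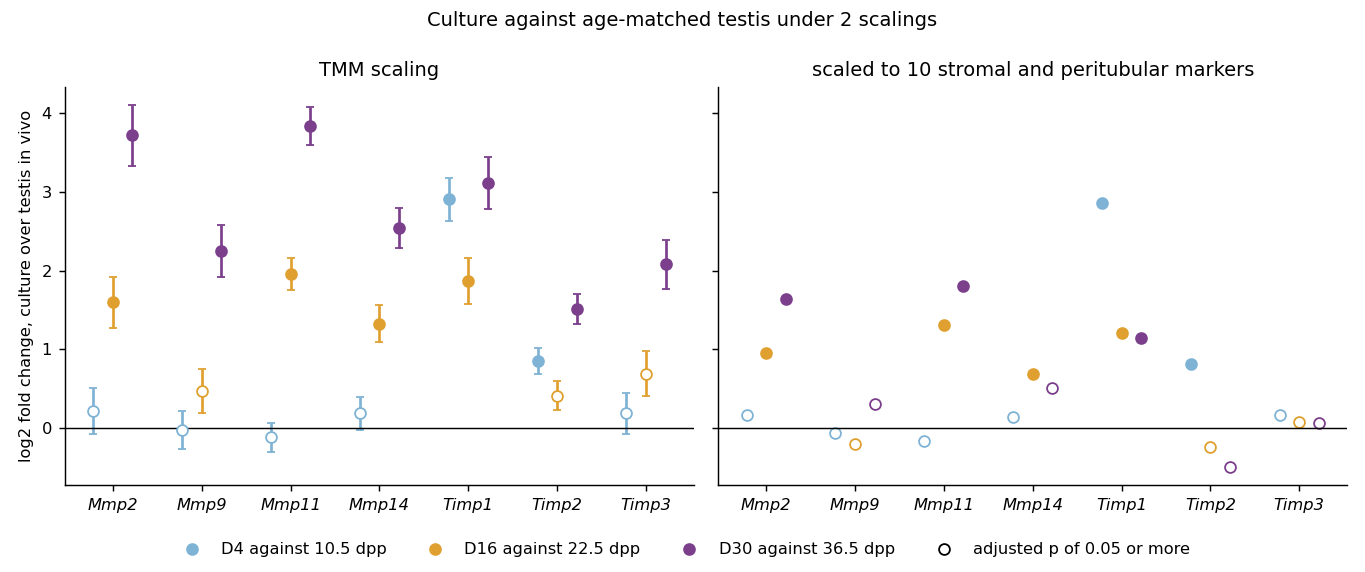
Log2 fold change of culture over age-matched testis for the 7 genes with enough counts, with TMM scaling (left, bars are SE) and with libraries scaled to 10 stromal and peritubular markers (right, no error shown). Filled points passed at an adjusted p under 0.05, and Timp1 is above 1 in all 6 positions while Timp2 at D30 is at 1.51 on the left and at -0.50 on the right.

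Whether the effect of culture itself differed between days was tested as a difference of log2 fold changes. From D4 to D16 it grew for Mmp11 (by 2.08, adjusted p = 0.000313) and Mmp14 (by 1.14, adjusted p = 0.0304), 2 of the 9 genes, beside 5.26% of all genes with a larger and 4.36% with a smaller effect. From D16 to D30 it grew for 7 genes, with differences from 1.11 for Timp2 (adjusted p = 0.00761) to 2.12 for Mmp2 (adjusted p = 0.00599), and became smaller for 0, beside 11.5% and 8.63%. From D4 to D30 it grew for 6 genes and became smaller for 0, beside 25.8% and 20.7%, with 3.96 for Mmp11 (adjusted p = 3.02e-07) and 3.51 for Mmp2 (adjusted p = 2.51e-05). For Timp1 the effects at D4 and D30 were not called different (difference 0.21, SE 0.38, adjusted p = 0.692). Nor were those for Mmp3, at trace counts, in the main fit (-5.07, SE 2.39, adjusted p = 0.0992). The effect on Mmp3 was called smaller at D30 by DESeq2 (-4.87, adjusted p = 0.0495). By edgeR it was called with only the groups compared (-5.11, adjusted p = 0.0412) or with stromal scaling (-6.70, adjusted p = 0.0289).

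Several of these differences rested on single libraries. The call for Mmp14 between D4 and D16 was kept without 22.5 dpp replicate 2 or D16 replicate 1 and lost without any other library of the groups involved (adjusted p from 0.0565 to 0.139), while Mmp2 was called in addition without either of those (1.59, adjusted p = 0.0283, and 1.58, adjusted p = 0.0458). Between D16 and D30 the call for Timp1 was kept without 22.5 dpp replicate 1, 36.5 dpp replicate 1 or D30 fresh replicate 2 and lost without any other library (adjusted p from 0.051 to 0.166). In the same contrast D16 replicate 1 was needed for the calls of Timp2 (0.0699 without it), Timp3 (0.152) and Mmp14 (0.097), 36.5 dpp replicate 1 for those of Timp3 (0.095) and Mmp14 (0.0993), and 22.5 dpp replicate 2 for that of Timp3 (0.075). The difference for Timp2 between D4 and D30 (0.66, SE 0.24, adjusted p = 0.0336) was lost without 10.5 dpp replicate 2, either 36.5 dpp library, D4 replicate 1 or 2 or D30 fresh replicate 3 (adjusted p from 0.0592 to 0.12).

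The differences also depended on the scale. With stromal scaling Mmp11 still grew between D4 and D16 (1.47, adjusted p = 0.00416), while Mmp14 lost its call (0.55) and the effect on Timp1 (-1.65, adjusted p = 0.013) and Timp2 (-1.06, adjusted p = 0.0466) became smaller. None of the 7 calls between D16 and D30 remained on this scale, and between D4 and D30 Timp1 and Timp2 turned to -1.71 (adjusted p = 0.000403) and -1.31 (adjusted p = 0.00145), Mmp14 (0.36) and Mmp9 (0.36) lost their calls, and Timp3 came to -0.10.

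Within culture, the rises called by edgeR were present by D4, while Mmp9 and Mmp11 were called lower only from D4 to D16. At D4 against 6.5 dpp 4 genes were higher, with Timp1 at a log2 fold change of 2.46 (SE 0.25, adjusted p = 1.67e-06) and Timp2 at 1.57 (SE 0.16, adjusted p = 1.44e-06), Mmp3 at least 26.9-fold higher (adjusted p = 0.00131) and Mmp13 at 14 counts against 1 (adjusted p = 0.0115). The background was 10.8% of all genes higher and 10.1% lower. Only Mmp2 was lower, by a log2 fold change of -1.17 (SE 0.28, adjusted p = 0.0066), as it also was in the testis over the same 4 days. Against the fresh 6.5 dpp library alone, Timp1 and Timp2 were still called, while Mmp2 (-1.26, adjusted p = 0.0714), Mmp3 (adjusted p = 0.0845) and Mmp13 (adjusted p = 0.146) were not.

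From D4 to D16 Mmp2 (log2 fold change -1.64, adjusted p = 0.00165), Mmp9 (-1.37, adjusted p = 0.00175), Timp1 (-1.20, adjusted p = 0.00622) and Mmp11 (-0.70, adjusted p = 0.0214) fell. These 4 genes stand beside 5.48% of all genes lower and 18.4% higher, and 0 of the 9 were higher. Without D16 replicate 1 only the call for Mmp9 was left, with Mmp2 at -1.45 (adjusted p = 0.0542), Timp1 at -1.28 (0.0568) and Mmp11 at -0.44 (0.435), and Mmp11 also lost its call without D4 replicate 2 (0.0548) or 3 (0.0601). On the stromal scale, which was shifted by 0.67, Mmp2 was still lower, Timp1 (-0.52), Mmp9 (-0.71) and Mmp11 (-0.02) were not called, and Timp2 was higher (0.92, adjusted p = 0.00616). From D16 to D30 edgeR called 0 of the 9 genes, beside 1.46% of all genes higher and 0.332% lower. At an unadjusted p under 0.05 it called 2, Timp1 (log2 fold change 0.66, SE 0.28) and Timp2 (0.60, SE 0.18), and DESeq2 called 1, Timp2 (0.63, adjusted p = 0.0032).

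The order of the 7 groups by mean level set Timp1 and Timp2 apart from Mmp2, Mmp9, Mmp11 and Mmp14. The scarce proteases Mmp3 and Mmp13 also had all explant groups on top, at trace counts. Timp1 ran from D4 (90.8 ± 16.3 CPM, SD, n = 3) over D30 (59.1 ± 7.04, n = 4) and D16 (38.0 ± 1.76, n = 2) to 6.5 dpp (16.6 ± 5.07, n = 4) and the other testes, and every explant library was above every testis library. Of the neighbours in this order, those of 6.5 and 10.5 dpp overlapped. Timp2 ran from D30 (743 ± 94.5 CPM, n = 4) over D16, D4, 22.5, 10.5 and 36.5 dpp to 6.5 dpp (149.6 ± 32.3, n = 4), with overlap between D16 and D4, between D4 and 22.5 dpp and between 36.5 and 6.5 dpp. Mmp2 ran from 6.5 dpp over D4, 10.5 dpp, D16, D30 and 22.5 dpp to 36.5 dpp, and D4 overlapped with 10.5 dpp and D16 with D30. Mmp14 and Timp3 were highest at D4 by their means (376 ± 31.4 and 178 ± 34.8 CPM), but their ranges at D4, 10.5 and 6.5 dpp overlapped.

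Freezing was compared in 4 CSF and 17 fresh libraries, with the stage as a term. With edgeR 0 of the 9 genes differed between CSF and fresh tissue, at an unadjusted p under 0.05 also 0, and with DESeq2 0. Of all genes tested 0% were higher and 0% lower with edgeR, 1261 genes had an unadjusted p under 0.05, and DESeq2 called 4. The log2 differences of CSF from fresh ran, among the 7 genes with enough counts, from -0.22 (SE 0.30, Mmp2) to 0.34 (SE 0.26, Timp1). The highest level of Mmp13 was in the D30 CSF library, at 0.452 CPM from 18 counts. Only 1 fresh library at 6.5 dpp and 1 CSF library at D30 stand behind this comparison.

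Within a library, summed levels of proteases and inhibitors can be set side by side after division by exon length, as RPKM, the CPM divided by the length of the union of exons in kilobases. Per length, Mmp2 was the most abundant of the 9 transcripts at 6.5 dpp (116 ± 32.2 RPKM) and Timp2 in every other group, followed by Timp1 in all explant groups and at 36.5 dpp. The 6 proteases summed to 159 to 262 RPKM at 6.5 dpp and the 3 inhibitors to 64.3 to 81.2. The log2 ratio of proteases to inhibitors was 1.57 on average at 6.5 dpp (between 1.31 and 1.74) and 0.67 at 10.5 dpp (between 0.54 and 0.80). It was -2.03 at 22.5 dpp (between -2.14 and -1.92) and -3.22 at 36.5 dpp (-3.47 and -2.97). It was thus lower at each age in vivo, with no overlap between ages.

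From D4 on, this ratio moved in culture over a smaller range than in vivo from 10.5 dpp on. It was -0.54 for D4 (-0.55 to -0.54), -1.14 for D16 (-1.21 to -1.07) and -1.93 for D30 (-2.08 to -1.65). The explants began as 6.5 dpp tissue, for which it was 1.57 on average, so most of the fall in culture came before D4. At D4 the ratio was below that of 10.5 dpp, and at D16 and D30 above that of 22.5 and 36.5 dpp, without overlap at any of the 3 stages. The levels behind it were not the same as those of a younger testis, since the inhibitors summed to 214 to 248 RPKM at D4 and 244 to 309 at D30, above the highest testis value of 135 among the libraries used. Timp1 made up 37.9% to 46.2% of the inhibitor sum at D4 and 21.2% to 28.4% at D30, against 13.6% to 15.7% at 10.5 dpp and 6.86% and 13.0% at 36.5 dpp. These shares depend on the division by exon length, which is 888 bases for Timp1, 3896 for Timp2 and 8144 for Timp3. These ratios are descriptions without a test, and transcript levels do not give the activity of the proteins.

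**Figure D3:**
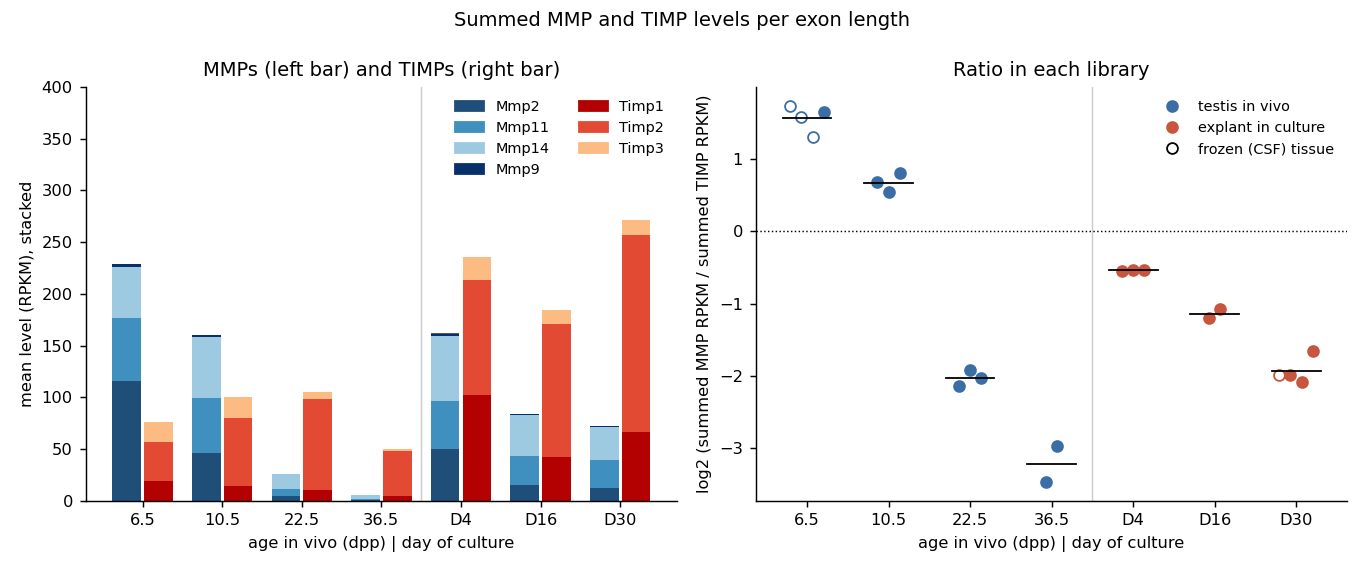
Left, mean RPKM per group of the proteases (blue, Mmp3 and Mmp13 too low to be seen) and of the inhibitors (red), stacked by gene. Right, log2 ratio of the 2 sums in each library with the group mean as a line, which runs from 1.57 at 6.5 dpp to -3.22 at 36.5 dpp in vivo and from -0.54 at D4 to -1.93 at D30 in culture.

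Counts of some members can include reads of other genes, since the strand setting of the counting is not given in the sources used here. Mmp11 (chr10:75923221-75932502, minus strand) shares 155 exon bases with Chchd10 on the other strand, which went from 190.1 CPM at 6.5 dpp over 166 and 51.3 to 32.5 at 36.5 dpp and stood at 175 CPM at D4, 152 at D16 and 152 at D30, and its part in the counts of Mmp11 was not tested. Timp3 (chr10:86300412-86349505, plus strand) shares 1733 exon bases with Syn3, whose own level was at most 1.83 CPM on average in any group. Timp1 (chrX:20870166-20874737) lies within Syn1, and Cep295nl lies within Timp2 (chr11:118301061-118355411), both without shared exon bases. Cep295nl reached 441 CPM at 36.5 dpp and 40.8 at D30. The other members lie at chr8:92827290-92853421 (Mmp2), chr9:7445822-7455975 (Mmp3), chr2:164940326-164955850 (Mmp9), chr9:7272514-7283333 (Mmp13) and chr14:54431598-54442456 (Mmp14), all on the plus strand of GRCm38.p6, from which all of these positions are taken.

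Beyond the 9 genes, 17 further MMP genes were listed, of which 10 had enough counts to be tested. Mmp12, the macrophage elastase, was the one with the largest difference, at 959 counts in the D4 libraries against 2 at 10.5 dpp, 1190 at D16 against 5 at 22.5 dpp and 2579 at D30 against 2 at 36.5 dpp (adjusted p = 1.33e-06, 1.42e-06 and 7.42e-07). Its mean level was 6.52, 14.2 and 16.1 CPM in the explants. The macrophage markers Adgre1, Csf1r, Cd68, C1qa, C1qb and Mrc1 summed to 32.6 to 38.1 CPM at D4 against 119.7 to 159 at 10.5 dpp, with 5 of them lower. They summed to 147 and 155 CPM at D16 against 177 to 264 at 22.5 dpp, with 1 lower, and to 189 to 262 at D30 against 80.8 and 96.6, with 4 higher. The shares of all genes were 4.92%, 14.0% and 32.4% higher on the 3 days and 3.18%, 11.8% and 35.0% lower. On the stromal scale 0 of these 6 markers were higher on any day. There, 6, 5 and 4 were lower, beside 2.84%, 35.4% and 77% of all genes. The part of macrophages in the level of Mmp12 was not tested. Neutrophil markers, for a cell rich in Mmp9, summed to at most 2.64 CPM in any library. Of the 4 with enough counts to be tested, 0 were called at D4 and D16, and 1 was higher and 1 lower at D30. Camp had 175 counts at D30 against 5 at 36.5 dpp and S100a8 had 13 against 0. S100a9 went the other way, at 0 in every D30 library and not at 36.5 dpp. In both D16 libraries S100a9 and Ly6g were at 0, while S100a8 had 9 counts there against 2 at 22.5 dpp. The part of neutrophils in the level of Mmp9 was not tested.

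Of the 10 tested MMP genes, 4 were higher and 3 lower at D4, 3 higher and 1 lower at D16, and 6 higher and 1 lower at D30. Of all genes, 4.92%, 14.0% and 32.4% were higher on these days and 3.18%, 11.8% and 35.0% lower. On the stromal scale the counts of MMP genes were 4 and 3, 3 and 4, and 3 and 6. There, 3.57%, 4.05% and 2.6% of all genes were higher and 2.84%, 35.4% and 77% lower. At D4 the membrane-type Mmp24 was higher (log2 fold change 2.52, SE 0.42), as was Mmp19 (1.42), and Mmp25 was lower (-1.89). At D30 Mmp23 (4.38, SE 0.50) and the membrane-type Mmp15 (3.45, SE 0.39) were higher and Mmp25 was lower (-1.63). Of 4 further inhibitors only A2m, a broad protease trap, was higher on all 3 days, at 36.7 CPM against 1.70 at D4, 9.86 against 0.653 at D16 and 13.2 against 0.862 at D30. Reck, which holds MMPs in check at the cell surface, was higher at D30 alone (1.44, SE 0.28) and Timp4 lower (-2.47, SE 0.46), and on the stromal scale Reck turned to -0.61.

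The plasminogen system is another matrix-degrading cascade, and its product plasmin can activate MMP proenzymes. Of its 8 genes 5 were higher at D4, 4 at D16 and 5 at D30, and 0 were lower, with median log2 fold changes of 1.00, 1.13 and 2.77 beside -0.01, -0.08 and -0.03 over all genes. The shares of all genes on these days were 4.92%, 14.0% and 32.4% higher and 3.18%, 11.8% and 35.0% lower. Plau, which encodes the activator urokinase, stood at 38.7 CPM against 7.12 at D4 (log2 fold change 2.53, SE 0.26) and 43.8 against 3.14 at D30 (3.17, SE 0.31). Its receptor gene Plaur stood at 9.57 against 0.574 CPM at D4 (4.13, SE 0.43) and 5.44 against 0.181 at D30 (4.26, SE 0.55). On the stromal scale 4, 4 and 5 of the 8 genes were higher on the 3 days and 2 lower at D30, and Plau and Plaur were higher on each day, at 1.20 and 2.30 at D30. The shares of all genes on that scale were 3.57%, 4.05% and 2.6% higher and 2.84%, 35.4% and 77% lower.

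**Figure D4:**
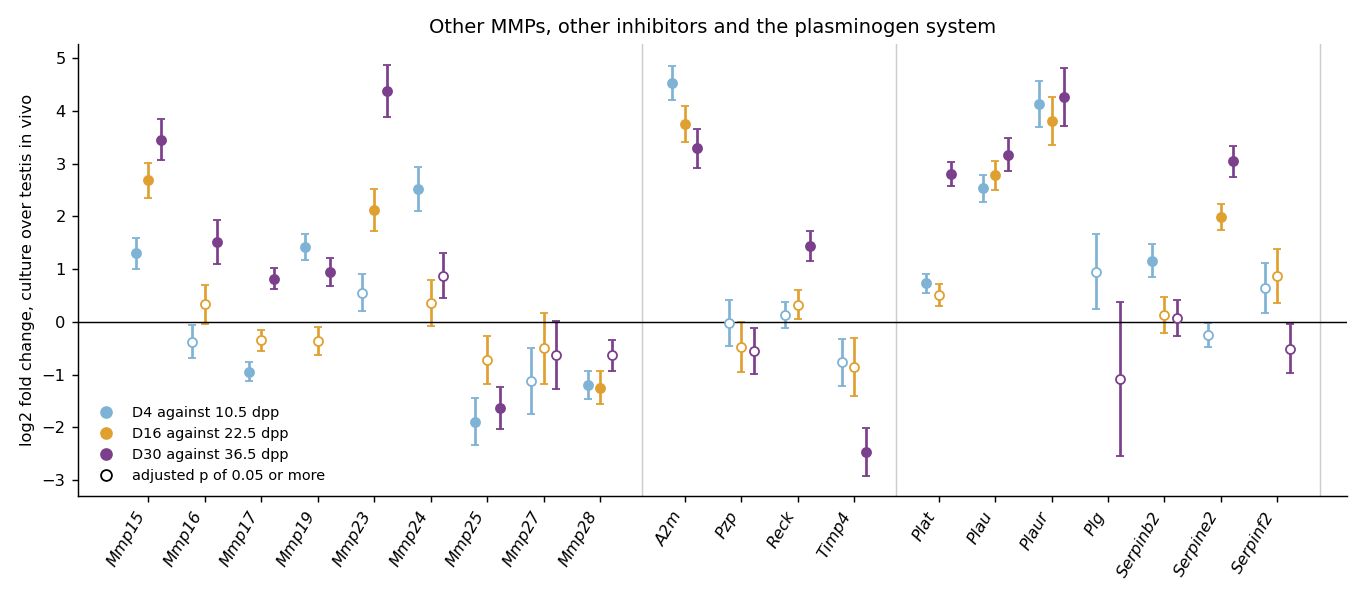
Log2 fold change of culture over age-matched testis, with TMM scaling and SE, for genes of 3 further lists, the other MMPs, other inhibitors and the plasminogen system, from left to right. Filled points passed at an adjusted p under 0.05, comparisons with at most 12 counts in a group (Mmp12 among them) are left out, and A2m, Plau and Plaur are above 2 on all 3 days.

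The inducers were examined as a list of 13 cytokines, growth factors and AP-1 subunits, 12 of them tested. Beside them, 4.92%, 14.0% and 32.4% of all genes were higher at D4, D16 and D30, and 3.18%, 11.8% and 35.0% lower. At D4 3 were higher, the cytokine Il1a (log2 fold change 1.88), the AP-1 subunit Junb (1.84) and Tgfb1 (1.06), and 0 lower. At D16 7 were higher, with Tnf at 45 counts against 6, Jun (1.50), Fosl2 (1.40) and Junb (1.23), and 0 lower. At D30 8 were higher and 1 lower, with Fos at 10.1 CPM against 0.406 (3.98, SE 0.35), Tgfb2 (3.15, SE 0.39), Tnf at 154 counts against 2 and Il6 at 74 against 0, the latter spread unevenly over the D30 libraries (0.0504 to 1.51 CPM). On the stromal scale 3, 2 and 3 genes of the list were higher on the 3 days and 0, 1 and 4 lower. There, 3.57%, 4.05% and 2.6% of all genes were higher and 2.84%, 35.4% and 77% lower.

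Most substrates passed the test at D30 and few before. The share of all genes called also rose, from 4.92% higher and 3.18% lower at D4 to 14.0% and 11.8% at D16. At D30 it was 32.4% and 35.0%, and the counts of the 3 lists below stand beside these shares. Those on the stromal scale stand beside 3.57% higher and 2.84% lower at D4, 4.05% and 35.4% at D16 and 2.6% and 77% at D30. Of 14 genes of collagens, laminins and other matrix proteins, 1 was higher (Col3a1, log2 fold change 1.35) and 1 lower (Eln, -1.25) at D4, 3 were higher at D16 and 14 at D30, where Col1a1 (3.23), Col3a1 (3.10), Col4a2 (2.90) and Col4a1 (2.87) led. On the stromal scale 0 were higher and 3 lower at D16, and 4 were higher and 1 lower at D30. Of 9 partners and activators of MMPs, 4 were higher at D4, led by Lcn2, which binds and stabilizes MMP9 (3.35), and Cd44, which anchors MMP9 and MMP14 at the cell surface (1.59), and 3 were higher at D16. At D30 7 were higher, among them Cd44 (3.04) and Furin (2.27), the convertase that activates pro-MMP14 and pro-MMP11, and 2 lower, while on the stromal scale 3, 2 and 1 were higher on the 3 days and 3 lower at D30. Of 19 ADAMTS proteases, a related family, 1 was higher and 2 lower at D4, where Adamts4 was at 1.96 and Adamts16 at -3.74, 2 were higher and 2 lower at D16, and 12 were higher and 3 lower at D30, and 1 higher and 7 lower on the stromal scale, where 77% of all genes were lower.

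The members fell into sets by likeness over the 21 libraries, given here as Pearson's r of log2(CPM + 1), which describes points that share stage and depth. Mmp2, Mmp9, Mmp11, Mmp14 and Timp3 were alike, with r from 0.85 between Mmp9 and Timp3 to 0.97 between Mmp14 and Timp3. Timp2 stood apart from Mmp2 (r = -0.14) and was closest to Mmp13 (0.83) and Timp1 (0.69). The value for Mmp13 rests on at most 18 counts a library. Among 15774 genes with a mean of at least 1 CPM, those most like Mmp2 were S1pr2, Ccnd2 and Lpcat1 (0.98 to 0.99), those most like Mmp9 Igf2bp2, Farp1 and Glis2, those most like Mmp11 Hpcal1, Dpysl2 and Dhh, and those most like Mmp14 Fkbp9, Pygb and Rnf145. Timp1 was most like Scin, Hspb8 and Adm (0.95 to 0.97), Timp2 most like Rell2, Itih3 and Il17re and Timp3 most like Rps6ka3, Atrx and Bmpr2. Mmp3 and Mmp13 lay below that level and were not ranked.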

How the data were processed

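RNA-seq of testes and testis explants was analysed from raw read counts per gene, which the authors deposited as 1 table of 23 libraries having aligned the reads by STAR (version 2.7.3a) and counted them by HTSeq (version 0.12.4), per the labels. The libraries were stranded, poly(A)-selected and read from a single end. The strand setting of the counting is not given in the sources used here. No column lacked a sample.

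From the counts, 1 model with 7 groups was fitted to 21 libraries with edgeR 4.0.16 (R 4.3.3), using filterByExpr, TMM factors and the quasi-likelihood F test. Frozen tissue was joined to fresh tissue of its stage, and p-values were adjusted after Benjamini-Hochberg over all genes tested. A gene was called at an adjusted p under 0.05. The scripts were tested on simulated counts. The 6.5 dpp fresh replicates 1 and 3 were left out as described. Since the labels do not say which libraries share animals, p-values measure the spread between libraries, which may be technical in part. Total counts of 28351546 to 69029328 put a count of 0 over a group at no more than 3 counts, or 0.0181 to 0.0413 CPM. Intervals (95%, exact, conditional on the sum of both counts) and such limits cover counting error only.

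Of the 27466 gene identifiers, 27373 were matched to a symbol. Lengths and positions refer to GRCm38, and promoter sequences to the RefSeq annotation of GRCm38.p6. All 9 members were named. Up to 4 genes with the largest called changes per culture comparison were named from each further list, and the 3 genes most alike for each member. The single values of 1 gene of the plasminogen list are not reported here. The members and lists were chosen with earlier results of these data known.

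Alternatives were DESeq2 1.42.0, RLE factors (those of DESeq2), library size only, scaling to 10 stromal and peritubular markers, no filter on low counts, fresh libraries only, only the groups compared, 6.5 dpp fresh replicate 1 kept, a replicate block, each library left out in turn, the threshold of a log2 fold change of 2 with an adjusted p of 0.001, and CPM sums for the ratio of proteases to inhibitors. A fit without the 6.5 dpp CSF libraries was added after the data were seen.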

Additional observations from a re-analysis of the deposited data

Results flagged for a closer look

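Of 19 sets of 4 values checked for a library far from the others by Dixon's test (chance gives about 1 in 20), 2 were found. Mmp2 at D30 stood at 65.8 CPM in fresh replicate 3, whose gap to the nearest other library was 0.905 of the range. The same library had the highest stromal and peritubular sum (1879 CPM) and the lowest spermatid sum (291 CPM) of D30. Without it the log2 fold change of Mmp2 at D30 against 36.5 dpp was 3.48 and the call was kept. Mmp13 at 6.5 dpp stood at 0.0208 CPM in CSF replicate 1, which is 1 count against none in the other 3 libraries.

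The effect of culture differed between days for several members by the test of the difference itself. From D4 to D16 the log2 fold change grew by 2.08 for Mmp11 and 1.14 for Mmp14. From D4 to D30 it grew by 3.96 for Mmp11, 2.36 for Mmp14, 3.51 for Mmp2, 2.28 for Mmp9, 0.66 for Timp2 and 1.89 for Timp3. From D16 to D30 it grew by 1.88 for Mmp11, 1.22 for Mmp14, 2.12 for Mmp2, 1.79 for Mmp9, 1.25 for Timp1, 1.11 for Timp2 and 1.39 for Timp3. The age-matched testes of both days enter each difference, and the 3 differences share groups.

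The library labelled 6.5 dpp fresh replicate 1, which entered no comparison, stood at 0.239 CPM for Mmp13 and at 469 CPM for Timp2. Both are above the highest of the other 6.5 dpp libraries, at 0.0208 and 173 CPM.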

How the results depend on the processing

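Of the single-gene values recomputed under the alternatives, 1679 kept their direction and their side of the threshold, 129 lost and 24 gained the call, and 46 changed sign without being called under either setting (8 with stromal scaling, 13 with other settings and 25 without 1 library). A further 14, called under at least 1 of the settings, changed sign, all with scaling to stromal and peritubular markers. These were Timp2 at D30 (-0.50), Timp1 (1.13) and Timp3 (0.035) at 22.5 against 10.5 dpp, and Mmp14 (0.0073), Timp1 (0.85), Timp2 (0.97) and Timp3 (0.27) at 36.5 against 22.5 dpp. In the difference of the culture effect they were Timp1 (-1.71), Timp2 (-1.31) and Timp3 (-0.10) between D4 and D30, and Mmp14 (-0.18), Timp1 (-0.055), Timp2 (-0.25) and Timp3 (-0.016) between D16 and D30. That scaling shifted the log2 scale by -0.04, -0.67 and -2.01 at D4, D16 and D30, and library size alone by -0.09, 0.16 and 0.64. With library size alone Timp2 lost its calls at 10.5 dpp (0.77, adjusted p = 0.0517) and 22.5 dpp (0.41, adjusted p = 0.0762).

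The number of the 9 genes called, with the value reported first, changed as follows. With the stricter threshold it went from 4 to 1 at D4, from 5 to 0 at D16, from 2 to 0 at 10.5 against 6.5 dpp, from 7 to 2 at 22.5 against 10.5 dpp, from 6 to 1 at 36.5 against 22.5 dpp, from 5 to 1 at D4 against 6.5 dpp and from 4 to 0 at D16 against D4. At D30 Mmp2, Mmp9, Mmp11, Mmp14, Timp1 and Timp3 still passed it. The share of all genes past that threshold was not counted. With stromal scaling it went from 8 to 3 at D30, from 2 to 0 at 10.5 dpp, from 6 to 3 at 36.5 dpp, from 4 to 2 at D16 against D4 and from 7 to 0 for the difference between D16 and D30. With 6.5 dpp fresh replicate 1 kept it went from 4 to 2 at D4, from 5 to 2 at D4 against 6.5 dpp, from 4 to 1 at D16 against D4 and from 2 to 0 at 10.5 dpp. At 10.5 against 6.5 dpp it was 1 by library size and 0 with fresh libraries only, without the CSF libraries or with only the groups compared, and at D4 against 6.5 dpp 2 with fresh libraries only or without the CSF libraries. DESeq2 called 1 gene at D30 against D16 where edgeR called 0. For the difference between D4 and D16 (2) it was 4 with fresh libraries or only the groups compared and 1 with replicate 1 kept or the stricter threshold, and for that between D16 and D30 (7) 2 with replicate 1 kept or only the groups compared and 0 with the stricter threshold. The cause of these changes was not tested.

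Leaving out 1 library at a time gave 3 calls each time at D4, 4 to 6 at D16, 7 to 8 at D30, 0 to 2 at 10.5 dpp, 7 at 22.5 dpp, 5 to 6 at 36.5 dpp, 5 at D4 against 6.5 dpp, 1 to 4 at D16 against D4 (1 without D16 replicate 1), and 1 to 3, 5 to 6 and 3 to 7 for the differences D4 to D16, D4 to D30 and D16 to D30. Over CPM sums in place of RPKM, the log2 ratio of proteases to inhibitors was -0.049 for D4 (between -0.19 and 0.031), -0.80 for D16, -1.57 for D30, -1.77 for 22.5 dpp and -2.84 for 36.5 dpp.

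The deviations of libraries with the same replicate number correlated at 0.203, 0.027 and -0.008 for D4 with 10.5 dpp, at 0.525 and 0.661 for D16 with 22.5 dpp and at -0.226 and -0.472 for D30 with 36.5 dpp. Since the labels tie no such libraries together, and these values do not pair them throughout, they were taken to share only a number. With a replicate block 3 genes were called at D4 (Mmp13 was lost), 5 at D16 and 8 at D30, and the effect on Timp1 between D16 and D30 lost its call (1.14, adjusted p = 0.0763) while Mmp2 between D4 and D16 gained it (1.43, adjusted p = 0.0498). Depth limits Mmp3 and Mmp13, which rest on at most 37 counts a library.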
